A study of Homo sapiens with 11 samples.

Results

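The H2O2 effect that co-treatment and pre-treatment had in common was read from all 11 small RNA libraries of the series. The member libraries were chosen as every H2O2 and control library of both regimens, 11 of 11, and their counts were joined by miRNA name. All cells were SH-SY5Y, a human neuroblastoma line subcloned from SK-N-SH that takes on a neuron-like form with all-trans retinoic acid (ATRA), and every group, controls included, received 10 µM ATRA for 7 days. In co-treatment, 3 libraries had 10 µM H2O2 in the medium during the 7 days of ATRA and 3 controls had ATRA without H2O2. In pre-treatment, 3 libraries had 10 µM H2O2 for 72 h, which was removed before the 7 days of ATRA, and 2 controls had ATRA without that exposure. No other control of pre-treatment is analysed here. One cell line stands for neurons in all groups, so the libraries of a group are separate cultures of that line and p-values measure the spread between them.

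A miRNA is cut from a hairpin transcript into a mature strand of the 5′ arm (5p) or the 3′ arm (3p), and it lowers target mRNAs mainly through pairing of its seed, the short stretch near its 5′ end. The miR-34 family is a textbook set of miRNAs switched on by p53, the transcription factor that answers DNA damage, and H2O2 is a reactive oxygen species that can damage DNA. Members of this family restrain the cell cycle and are expressed in neurons.

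The sequences below are shown because these miRNAs had the lowest p of the common effect among those described in full, with hsa-miR-34b-5p added as the other arm of hsa-miR-34b-3p, and the seed (bases 2 to 8) is in capitals. They are mature sequences from RefSeq, in the table of build GRCh38.p14, written 5′ to 3′.
hsa-miR-34a-5p: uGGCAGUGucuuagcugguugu
hsa-miR-34b-3p: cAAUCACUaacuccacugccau
hsa-miR-34b-5p: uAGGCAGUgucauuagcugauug
hsa-miR-488-5p: cCCAGAUAauggcacucucaa
hsa-miR-432-5p: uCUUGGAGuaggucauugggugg
hsa-miR-1287-5p: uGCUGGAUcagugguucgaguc
hsa-miR-30c-5p: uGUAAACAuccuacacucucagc
hsa-miR-29b-3p: uAGCACCAuuugaaaucaguguu
hsa-miR-3613-3p: aCAAAAAAaaaagcccaacccuuc
hsa-let-7i-3p: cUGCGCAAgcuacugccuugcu
hsa-miR-664a-3p: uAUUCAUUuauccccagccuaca

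hsa-miR-34c-5p and hsa-miR-1277-3p belong to the same set but have no sequence in this table, so none is shown. Seed sharing with names absent from the table, hsa-miR-34c-5p included, could not be read. Of 26 names looked up, 23 matched the RefSeq table. Among the tested miRNAs that have a sequence in this table, the seed of hsa-miR-34a-5p was shared with hsa-miR-449a, that of hsa-miR-34b-5p with hsa-miR-449c-5p and hsa-miR-2682-5p, that of hsa-miR-30c-5p with hsa-miR-30a-5p and hsa-miR-30e-5p, and that of hsa-miR-29b-3p with hsa-miR-29a-3p and hsa-miR-29c-3p.

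Library totals ran from 5343953 to 8927582 counts. Replicates of a group correlated at 0.978 to 0.992 in log2 counts scaled to library size (CPM, counts in 1000000, after TMM scaling), except the 2 pre-treatment controls, which correlated at 0.932. Pre-treatment control 1 and control 2 thus stood further apart than any other replicate pair, and additive values that moved by over 1.5 times without one of them are given both ways for hsa-miR-664a-3p and the miRNAs whose H2O2 and control libraries did not overlap in either regimen. The neural marker list summed to 36758 to 38484 CPM in the co-treatment controls and 21964 to 26178 CPM with H2O2. In pre-treatment it summed to 23912.5 and 35329 CPM in the controls and 34461 to 41720 CPM with H2O2. The list was led by miR-137 (12934 to 34067 CPM), whose log2FC with H2O2 was -0.96 in co-treatment and 0.81 in pre-treatment. miR-181a-2-3p stood at 2375 to 6368 CPM, miR-375 at 1657 to 5727 CPM and miR-128-3p at 1297 to 1946 CPM. Low counts were read for miR-124-3p (0 to 7), miR-9-5p (14 to 46) and miR-181a-5p (1 to 11). How reads that match several hairpins were counted is not given, so a low count need not mean a low level.

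The question was which miRNAs differed between H2O2 and control in the same direction whether H2O2 was present before or during differentiation. Of 2576 miRNAs in both count tables, 777 passed the filter on low counts. With H2O2 as one term and the regimen as covariate, edgeR's quasi-likelihood test with Benjamini-Hochberg adjustment called 0 of 777 miRNAs (0%) at a false discovery rate (FDR) under 0.05 and a log2 fold change (log2FC) beyond 0.6 in either direction. The smallest FDR was 0.0612, for hsa-miR-34c-5p. An unadjusted p under 0.05 was reached by 101 miRNAs (13%), 39 higher and 62 lower with H2O2, and DESeq2 with the same design called 29, of which 15 were higher and 14 lower. With each regimen given equal weight in a fit of the 4 groups, the mean of both effects was called for 37 miRNAs (4.76%), 16 higher and 21 lower.

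In 22 miRNAs, the H2O2 and control libraries did not overlap in CPM in either regimen and lay in the same direction in both. H2O2 was above control for 15 of them (1.93% of the 777 tested) and below control for 7 (0.901%). For 125 miRNAs (16.1%) the libraries also did not overlap in either regimen, but in opposite directions. With an unadjusted p under 0.05 in both regimens, 19 miRNAs (2.45%) had the same direction, 12 higher and 7 lower, and 109 had opposite directions.

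**Figure D1:**
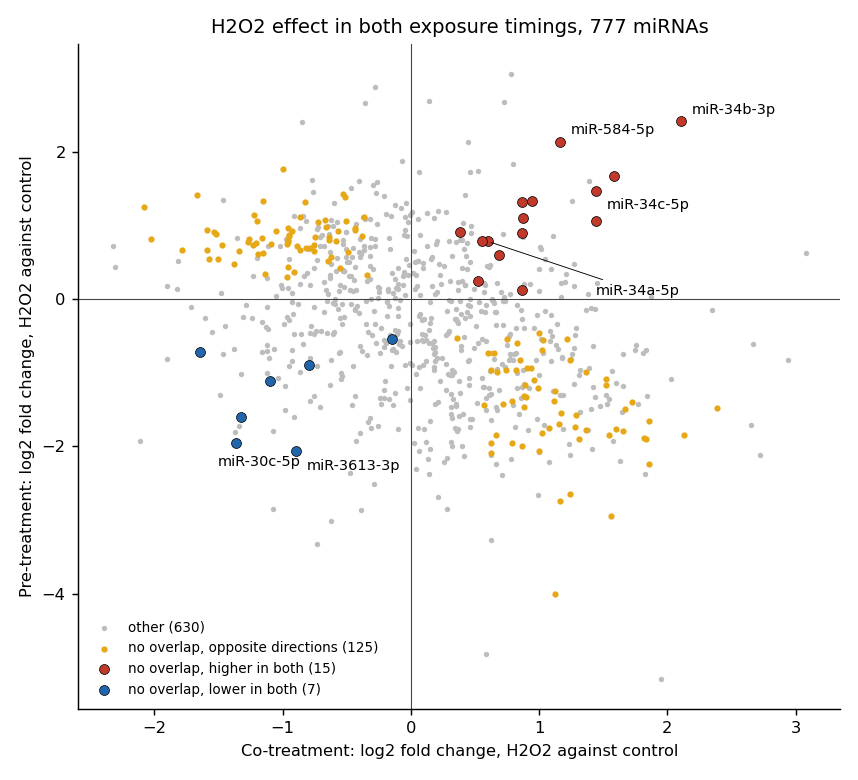
Log2 fold change of H2O2 against control in co-treatment (x axis) and pre-treatment (y axis) for the 777 miRNAs tested. The 15 red and 7 blue points are miRNAs without overlap that lay the same way in both regimens, and the 125 yellow points lay opposite ways.

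Across all miRNAs, the log2FC of the regimens ran against each other, as the plot of one regimen against the other shows. The sign was the same for 262 miRNAs (33.7%), and over the 777 miRNAs, which are not independent replicates, Pearson's r was -0.34 and Spearman's rho -0.38. Without pre-treatment control 1, r was 0.12, and without pre-treatment control 2 it was -0.49. Each regimen has its own controls, and the co-treatment contrast called 90 miRNAs (11.6%) and the pre-treatment contrast 161 (20.7%). The difference between the regimens had an FDR under 0.05 for 250 miRNAs (32.2%), and none of the 22 was among them (lowest FDR 0.140). The 22 were chosen for the same direction in both regimens, which by itself selects against such a difference. Regimen, its controls and any batch between the experiments cannot be told apart in this difference.

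The miR-34 family had 3 strands among the 15 higher miRNAs. By p, hsa-miR-34c-5p ranked 1 of the 777, hsa-miR-34b-3p 7 and hsa-miR-34a-5p 14, with other higher miRNAs between them. In the additive fit their log2FC was 1.45 ± 0.27 (SE), 2.21 ± 0.52 and 0.68 ± 0.18, or 2.74-fold, 4.62-fold and 1.60-fold higher with H2O2. Their FDR in edgeR's quasi-likelihood test was 0.0612, 0.0761 and 0.119, so none of the 3 passed. All 3 passed the equally weighted mean of the regimens, with FDR of 0.00480, 0.0187 and 0.0166.

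hsa-miR-34a-5p was by far the most abundant member. In co-treatment its level was 7538, 8371 and 7783 CPM in the controls and 11502, 13715 and 10658 CPM with H2O2. In pre-treatment it was 6892 and 8847 CPM in the controls and 13306, 12206 and 15192 CPM with H2O2. The 6 H2O2 libraries all lay above the 5 controls, across regimens as well as within each. The log2FC was 0.60 ± 0.19 in co-treatment and 0.79 ± 0.22 in pre-treatment.

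hsa-miR-34c-5p was read at 36, 30 and 22 counts in the co-treatment controls and 94, 58 and 81 counts with H2O2. In pre-treatment it had 48 and 36 counts in the controls and 150, 131 and 149 counts with H2O2. H2O2 libraries were above controls in both, and the pre-treatment libraries were the highest of all. The log2FC was nearly equal in the regimens, 1.44 ± 0.31 in co-treatment and 1.47 ± 0.35 in pre-treatment, and the difference between them had an FDR of 0.961.

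hsa-miR-34b-3p was scarce, with 6, 7 and 5 counts in the co-treatment controls and 32, 13 and 32 counts with H2O2. In pre-treatment the controls had 4 and 0 counts and the H2O2 libraries 20, 9 and 13. A count of 0 in that control allows up to 0.412 CPM of its total, and this limit covers counting error only. After scaling, the controls stood at 0 to 0.875 CPM. hsa-miR-34b-3p thus passed the filter (0.936 CPM in 5 libraries, before scaling) through the H2O2 libraries, and a filter met this way favours a higher reading with H2O2. No H2O2 library fell within the range of the controls, and the log2FC was 2.11 ± 0.60 in co-treatment and 2.42 ± 0.83 in pre-treatment.

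**Figure D2:**
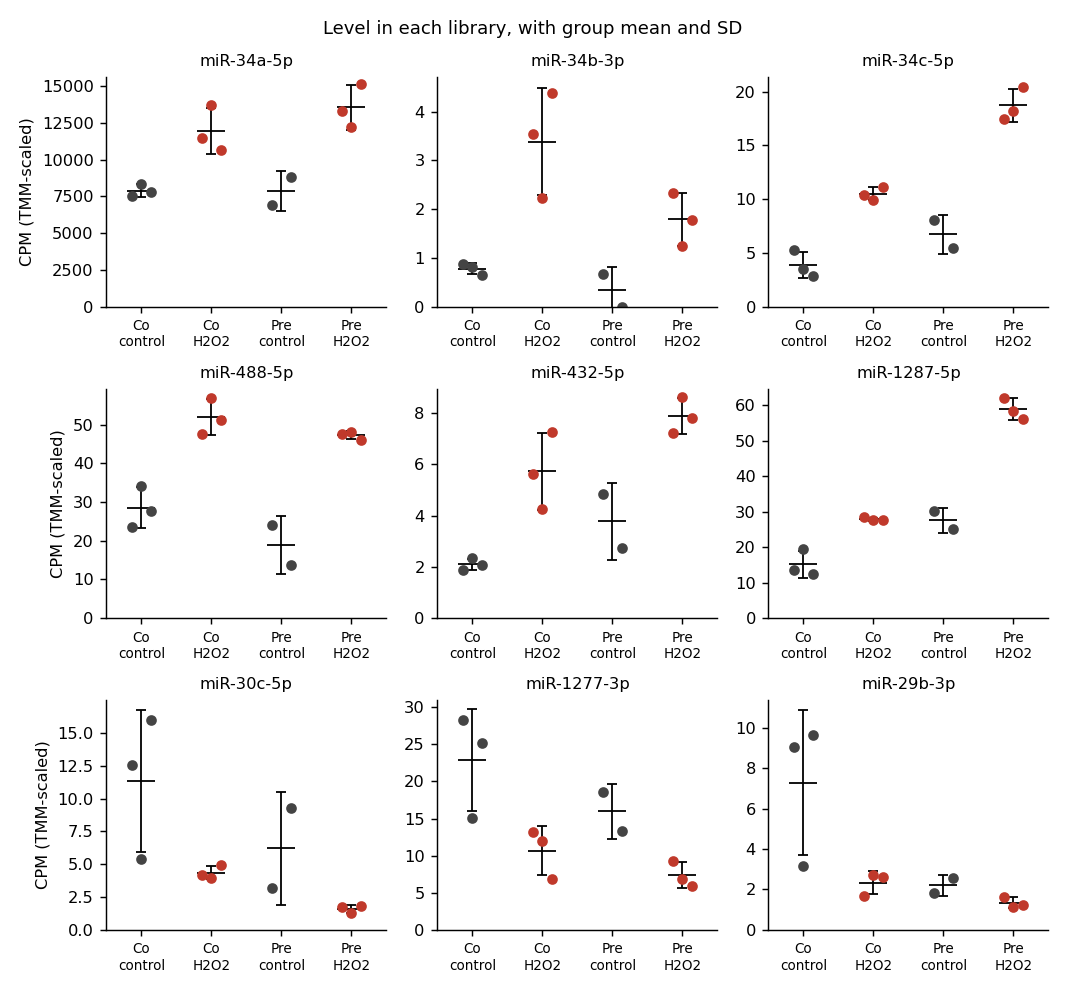
Level in each library (y axes, CPM after scaling by trimmed mean of M values) of 9 leading miRNAs in the 4 groups (x axes: Co, co-treatment; Pre, pre-treatment). Points are libraries, long bars group means and whiskers SD, with the whisker of the miR-34b-3p pre-treatment controls ending at the axis at 0. The 3 miR-34 panels show red H2O2 points above grey control points in both regimens.

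hsa-miR-34b and hsa-miR-34c come from one locus. In GRCh37 the hairpin MIR34B lies at chr11:111383663-111383746 on the plus strand and MIR34C at chr11:111384164-111384240, with 417 bases between them. Both lie in an exon of the long noncoding host gene MIR34BHG and in an intron of BTG4 on the opposite strand. MIR34A lies apart, at chr1:9211727-9211836 on the minus strand, in an exon of its own host MIR34AHG.

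Of 11 mature names in the miR-34 list, which includes the miR-449 relatives, 7 passed the filter. Their median additive log2FC was 0.68, against -0.10 over all tested miRNAs, and 6 of the 7 were higher in both regimens, against 112 of all 777. An unadjusted p under 0.05 on the higher side was reached by 3 of the 7, against 39 of the 777 (5.02%). Of the 3, hsa-miR-34b-3p passed the filter through its H2O2 libraries. The strand that left the pattern was hsa-miR-34a-3p, the less abundant arm of MIR34A, with a log2FC of -0.21 ± 0.36 in co-treatment and 1.40 ± 0.43 in pre-treatment, or 0.93 without pre-treatment control 1. With all libraries, this difference between the regimens had an FDR of 0.0412. The scarce members hsa-miR-34b-5p (1 to 24 counts), hsa-miR-449a (1 to 18 counts) and hsa-miR-449c-5p (1 to 15 counts) had additive log2FC of 0.80 ± 0.61, 0.58 ± 0.63 and 0.28 ± 0.63 and overlapped between H2O2 and control in at least one regimen. Of a separate list of other p53-linked miRNAs, 10 were tested with a median log2FC of 0.08. Opposite signs in the regimens were found for 7 of the 10 (70%), near the 66.3% of all 777.

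Outside the miR-34 family, the strands hsa-miR-488-5p, hsa-miR-432-5p and hsa-miR-1287-5p led the higher side. Their additive log2FC was 1.06 ± 0.25, 1.27 ± 0.30 and 0.97 ± 0.23, each with an FDR of 0.0761 in edgeR's quasi-likelihood test.

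hsa-miR-488-5p comes from a brain-enriched hairpin in an intron of ASTN1, the gene of a neuronal adhesion protein, at chr1:176998499-176998581. It had 23.6, 34.2 and 27.7 CPM in the co-treatment controls and 47.7, 57.0 and 51.2 CPM with H2O2. In pre-treatment the controls had 24.1 and 13.6 CPM and the H2O2 libraries 47.6, 48.0 and 46.0 CPM. The H2O2 libraries of the regimens met in one narrow range, above every control. The other arm did not share this, since hsa-miR-488-3p had a log2FC of -0.50 ± 0.27 in co-treatment and 0.51 ± 0.30 in pre-treatment.

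hsa-miR-432-5p belongs to the imprinted DLK1-DIO3 cluster on chromosome 14, where MIR432 lies at chr14:101350820-101350913 opposite an exon of RTL1. It was read at 13, 20 and 16 counts in the co-treatment controls and 51, 25 and 53 counts with H2O2. Pre-treatment gave 29 and 18 counts in the controls and 62, 62 and 57 counts with H2O2. Of 92 listed names of this cluster, 36 were tested. Of these, 2 were higher in both regimens and 12 lower in both, against 112 and 150 of all 777. Opposite signs were found for 22 (61.1%), near the 66.3% of all 777. The cluster's median log2FC was 0.00 in co-treatment and -0.69 in pre-treatment, against 0.09 and -0.25 over all miRNAs.

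hsa-miR-1287-5p, from an exon of PYROXD2 at chr10:100154975-100155064, had 13.6, 19.4 and 12.5 CPM in the co-treatment controls and 28.4, 27.6 and 27.7 CPM with H2O2. In pre-treatment the controls had 30.1 and 25.0 CPM and the H2O2 libraries 62.2, 58.5 and 56.1 CPM. The pre-treatment controls stood at the level of the co-treatment H2O2 libraries, so the difference was seen within each regimen and not across them. Its log2FC was 0.88 ± 0.25 in co-treatment and 1.10 ± 0.28 in pre-treatment.

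The other 10 higher miRNAs had additive log2FC between 0.40 and 1.62, miR-34a-5p included. Both hsa-miR-28-3p (1.12 ± 0.27), from an intron of LPP, and hsa-miR-584-5p (1.58 ± 0.41), from an intron of SH3TC2, ranked among the leading 12 by p. hsa-miR-339-3p (0.88 ± 0.24) and hsa-miR-99b-3p (0.40 ± 0.21) were each the scarcer strand of their hairpin. Their partner strands had log2FC of opposite signs. hsa-miR-339-5p was at 1.09 ± 0.27 in co-treatment and -0.84 ± 0.30 in pre-treatment, where its libraries overlapped and where it was at -0.21 without pre-treatment control 1. hsa-miR-99b-5p was at 0.88 ± 0.24 and -1.46 ± 0.26, or -0.995 in pre-treatment without that control. The rest were hsa-miR-6507-5p, hsa-miR-887-3p, hsa-miR-330-5p, hsa-miR-27a-5p and hsa-miR-6882-5p, and for hsa-miR-27a-5p the pre-treatment log2FC was only 0.13 ± 0.27. Without pre-treatment control 1 the additive log2FC of hsa-miR-6882-5p was 0.38 in place of 0.62.

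**Figure D3:**
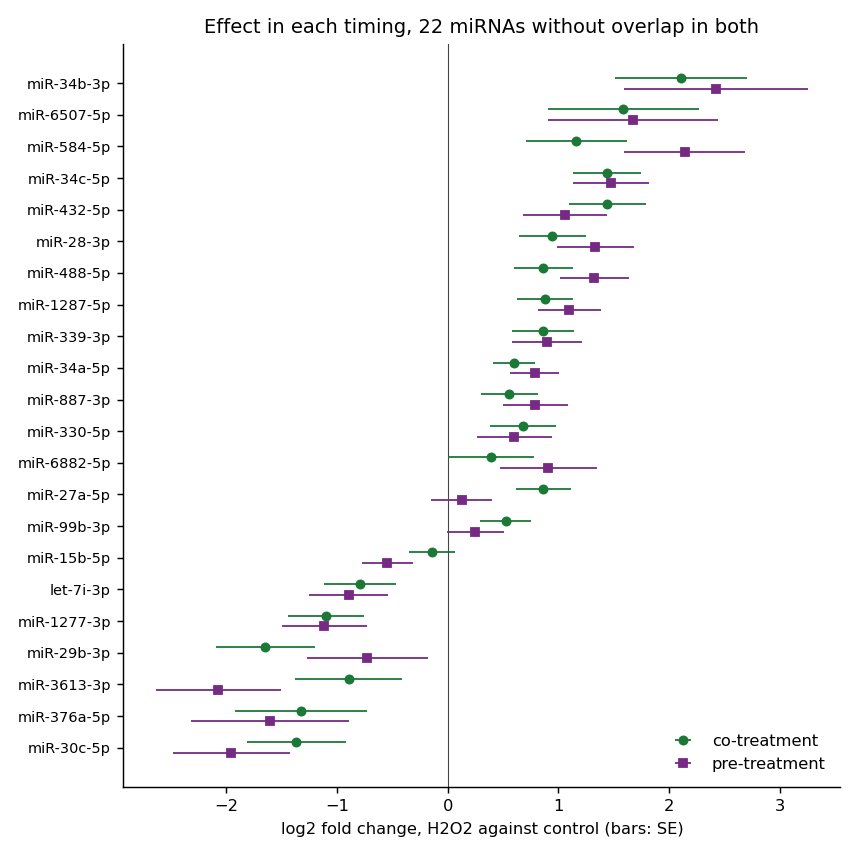
Log2 fold change of H2O2 against control (x axis, bars SE) of the 22 miRNAs without overlap in either regimen (y axis), in co-treatment (circles) and pre-treatment (squares). miR-34b-3p stands highest and miR-30c-5p lowest in the additive order, and miR-27a-5p, miR-99b-3p, miR-6882-5p and miR-15b-5p each have a bar that reaches 0.

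Among the 7 lower miRNAs without overlap, the 5 with the lowest p were hsa-miR-30c-5p, hsa-miR-1277-3p, hsa-miR-3613-3p, hsa-miR-29b-3p and hsa-let-7i-3p. Their additive log2FC was -1.62 ± 0.37, -1.10 ± 0.28, -1.40 ± 0.42, -1.27 ± 0.39 and -0.84 ± 0.27. None passed edgeR's quasi-likelihood test, with FDR from 0.0761 to 0.183. The equally weighted mean was called for 3 of them, hsa-miR-30c-5p (FDR 0.0146), hsa-miR-1277-3p (0.0234) and hsa-miR-3613-3p (0.0327).

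hsa-miR-30c-5p, of the miR-30 family, which is broadly expressed, had 86, 46 and 124 counts in the co-treatment controls and 38, 23 and 36 counts with H2O2. In pre-treatment the controls had 19 and 61 counts and the H2O2 libraries 15, 9 and 13. In CPM the H2O2 libraries lay below their own controls in each regimen, but the lowest control of each was close to them, at 5.39 CPM against 4.95 CPM in co-treatment and 3.18 CPM against 1.79 CPM in pre-treatment. This mature sequence arises from 2 hairpins, MIR30C1 in an intron of NFYC on chromosome 1 and MIR30C2 in an exon of LINC00472 on chromosome 6, and reads that match both can be split or lost in counting.

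The family members of hsa-miR-30c-5p differed among themselves. hsa-miR-30a-5p had an additive log2FC of 0.08 ± 0.23 and hsa-miR-30e-5p -0.23 ± 0.21. hsa-miR-30b-5p lay the same way as hsa-miR-30c-5p, at -1.07 ± 0.40 with overlap in both regimens, and was called without pre-treatment control 1 (-1.40 ± 0.27, FDR 0.00649 in edgeR's quasi-likelihood test). hsa-miR-30d-5p had 0.47 ± 0.20. Of the 3p arms, hsa-miR-30c-1-3p had 0.16 ± 0.23, and hsa-miR-30c-2-3p had 0.62 ± 0.25 in co-treatment and -0.97 ± 0.27 in pre-treatment. These arms were read at 220 to 467 and 109 to 369 counts, against 9 to 124 for hsa-miR-30c-5p. Whether reads of hsa-miR-30c-5p were lost in counting was not tested.

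hsa-miR-1277-3p had the most even log2FC across the regimens among the 7 lower miRNAs, -1.10 ± 0.34 in co-treatment and -1.11 ± 0.38 in pre-treatment. It had 194, 129 and 195 counts in the co-treatment controls and 119, 70 and 50 with H2O2. For pre-treatment the controls gave 111 and 88 counts and the H2O2 libraries 80, 49 and 43. In CPM every H2O2 library was below every control of its regimen.

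hsa-miR-29b-3p, whose family targets collagen and other matrix mRNAs, was at 62, 27 and 75 counts in the co-treatment controls and 15, 16 and 19 counts with H2O2. In pre-treatment the counts were 11 and 17 in the controls and 14, 8 and 9 with H2O2, and the log2FC was -0.72 ± 0.54 there against -1.65 ± 0.45 in co-treatment. It too arises from 2 hairpins. The 5p arms were read at 29 to 92 counts (hsa-miR-29b-1-5p) and 201 to 370 counts (hsa-miR-29b-2-5p), against 8 to 75 for hsa-miR-29b-3p. The seed relatives of hsa-miR-29b-3p, hsa-miR-29a-3p (0.13 ± 0.26) and hsa-miR-29c-3p (-0.49 ± 0.35), had smaller additive log2FC.

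hsa-miR-3613-3p, from an intron of DLEU2 at chr13:50570551-50570637, had 120, 88 and 124 counts in the co-treatment controls and 87, 54 and 34 with H2O2. The pre-treatment controls were far apart, at 30 and 105 counts, above 9, 19 and 28 counts with H2O2. hsa-let-7i-3p, the passenger arm of a let-7 hairpin, had 355, 247 and 420 CPM in the co-treatment controls against 175, 240 and 175 CPM with H2O2, and 184 and 461 CPM in the pre-treatment controls against 165, 172 and 184 CPM. For hsa-let-7i-3p the gap to control 1 was thus very small, and the separation in pre-treatment was wide only against control 2. For hsa-miR-3613-3p, pre-treatment control 1 was at 5.02 CPM and control 2 at 15.9 CPM, against 1.05, 2.64 and 3.85 CPM with H2O2. Without control 2 the additive log2FC was -0.88 for hsa-miR-3613-3p and -0.54 for hsa-let-7i-3p. hsa-miR-376a-5p (-1.43 ± 0.48) and the abundant hsa-miR-15b-5p (-0.32 ± 0.19, or -0.14 without pre-treatment control 1) complete the 7.

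hsa-miR-664a-3p, annotated at a small nucleolar RNA gene, had the third lowest p, with an additive log2FC of -1.89 ± 0.44 and an FDR of 0.0761 in edgeR's quasi-likelihood test. It was left out of the 22 because its libraries overlapped in co-treatment, with 152, 52.1 and 133 CPM in the controls and 72.5, 42.1 and 45.1 CPM with H2O2. In pre-treatment the controls had 78.5 and 301 CPM and the H2O2 libraries 24.8, 29.3 and 24.7 CPM. Without pre-treatment control 2 the additive log2FC was -1.18. The other arm, hsa-miR-664a-5p, had 0.15 ± 0.24.

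Lists of miRNAs were read by their counts beside all 777, of which 5.02% were higher and 7.98% lower at an unadjusted p under 0.05 and 66.3% had opposite signs. For the neuronal differentiation list, 33 of 42 were tested, 2 were higher and 6 lower at that p, and the median log2FC was -0.21. For miRNAs linked to NRF2, KEAP1 and hypoxia, the pathways of the antioxidant and low-oxygen response, 20 of 25 were tested, 2 were higher and 5 lower, and the median was -0.05. The let-7 family (19 tested) had 3 lower and 0 higher and a median of -0.17, and the miR-15/16 seed family (14 tested) had 2 lower and 0 higher and a median of -0.27. In the miR-17-92 list and its paralogs, growth-promoting miRNAs, 20 of 25 had opposite signs. Of the 25, 13 were without overlap in opposite directions, against 125 of all 777 (16.1%). The retinoic acid and HOX cluster list had 5 tested and none past that p, the snoRNA-derived annotations 9 tested with 3 higher and 1 lower, and the annotations derived from tRNA, rRNA or snRNA 3 tested and none past it.

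**Figure D4:**
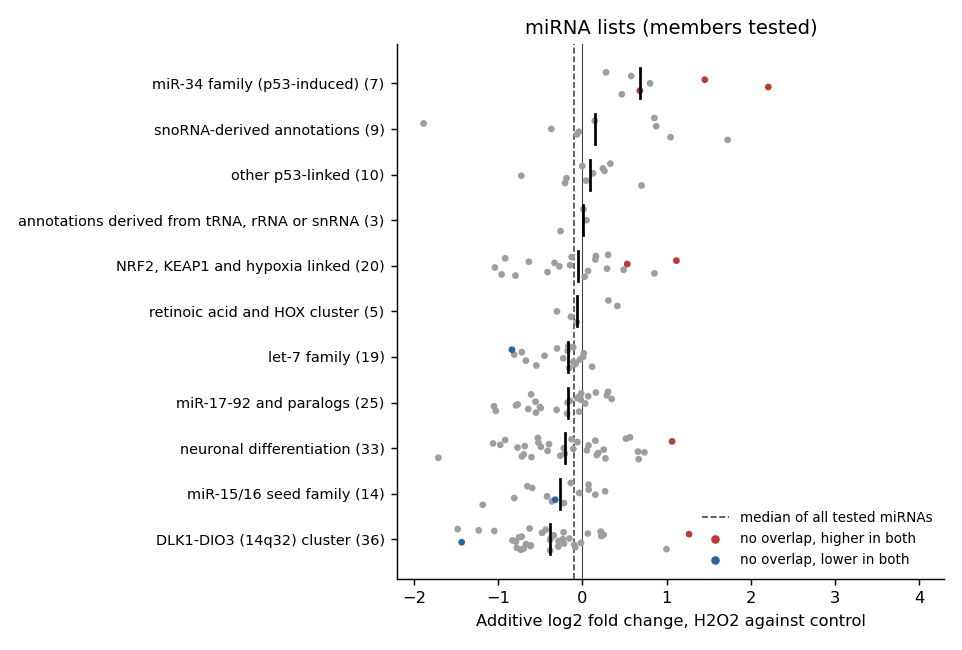
Additive log2 fold change (x axis) of each tested member of 11 miRNA lists (y axis, number tested in brackets), with a bar at each list's median. The miR-34 list stands furthest right with a median of 0.68, and the dashed line marks the median of -0.10 over all tested miRNAs.

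The summed levels of markers of other cell types ranged widely. The red blood cell list summed to 4.10 to 7.00 CPM in the co-treatment controls and 6.16 to 10.6 CPM with H2O2, which overlap. In pre-treatment it summed to 3.01 and 3.94 CPM in the controls and 10.6 to 14.8 CPM with H2O2. The member miR-451a of this list had 6 to 23 counts in controls and 10 to 49 with H2O2 (log2FC 1.49 ± 0.47). The other 2 members tested had opposite signs in the regimens. The log2FC of miR-144-5p was -0.35 in co-treatment and 2.66 in pre-treatment, and that of miR-486-5p 2.67 and -0.61. hsa-miR-122-5p, the defining liver miRNA, had 133 to 277 CPM in the co-treatment controls, 210 to 559 CPM in the co-treatment H2O2 libraries, 115 and 259 CPM in the pre-treatment controls and 535 to 816 CPM in the pre-treatment H2O2 libraries (1.25 ± 0.36). The white blood cell list, with 3 of 12 names at 0 everywhere, summed to 632 to 856 CPM in the co-treatment controls and 764 to 863 CPM with H2O2. In pre-treatment this list summed to 777 and 946 CPM in the controls and 1136 to 1173 CPM with H2O2. The epithelial list summed to 73.2 to 251 CPM in controls and 78.9 to 93.7 CPM with H2O2. The muscle list, with 5 of 11 names at 0, summed to 39.5 to 44.3 CPM in the co-treatment controls and 19.3 to 27.5 CPM with H2O2. In pre-treatment the muscle list summed to 17.6 and 29.7 CPM in the controls and 34.3 to 36.7 CPM with H2O2. The endothelial list, miR-126, did not overlap in either regimen but lay in opposite directions. It summed to 10647.7 to 17660 CPM in the co-treatment controls and 7723 to 10586.5 CPM with H2O2. In pre-treatment it summed to 5572 and 11083 CPM in the controls and 11522 to 12286 CPM with H2O2. The part of these miRNAs in the results was not tested.

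The 37 miRNAs called by the equally weighted mean included 12 of the 22 without overlap, 29 with the same sign in both regimens and 8 with opposite signs. Some were called through one regimen, such as hsa-miR-675-3p, with -0.47 ± 0.25 in co-treatment and -2.36 ± 0.28 in pre-treatment, and hsa-miR-323b-3p of the DLK1-DIO3 cluster, with 0.63 ± 0.25 and -2.09 ± 0.28. hsa-miR-582-5p had even values, -2.11 ± 0.65 and -1.93 ± 0.70, but its pre-treatment controls were at 13.6 and 125 CPM, around the H2O2 libraries at 18.8, 21.6 and 14.2 CPM. These 3 were named after their values were seen.

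Pre-treatment control 1 decided the count of common calls. Without it, edgeR's quasi-likelihood test of the additive term called 99 miRNAs, 58 higher and 41 lower, all 99 with the same sign in both regimens. They included 16 of the 22, 10 higher and 6 lower, and 23 of the 37. Without pre-treatment control 2 the additive term called 0, and 19 of the 22 remained without overlap in the same direction in both regimens. With pre-treatment control 1 left out, hsa-miR-34c-5p had an additive log2FC of 1.55 ± 0.26 and hsa-miR-34b-3p 2.46 ± 0.51. In the same fit hsa-miR-34a-5p had 0.60 ± 0.16 and hsa-miR-30c-5p -1.75 ± 0.34. This fit holds a single pre-treatment control, which is assumed to vary like the other groups. Leaving out any of the other 10 libraries called 0 miRNAs by the additive term, and the equally weighted mean then called 16 to 75.

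**Figure D5:**
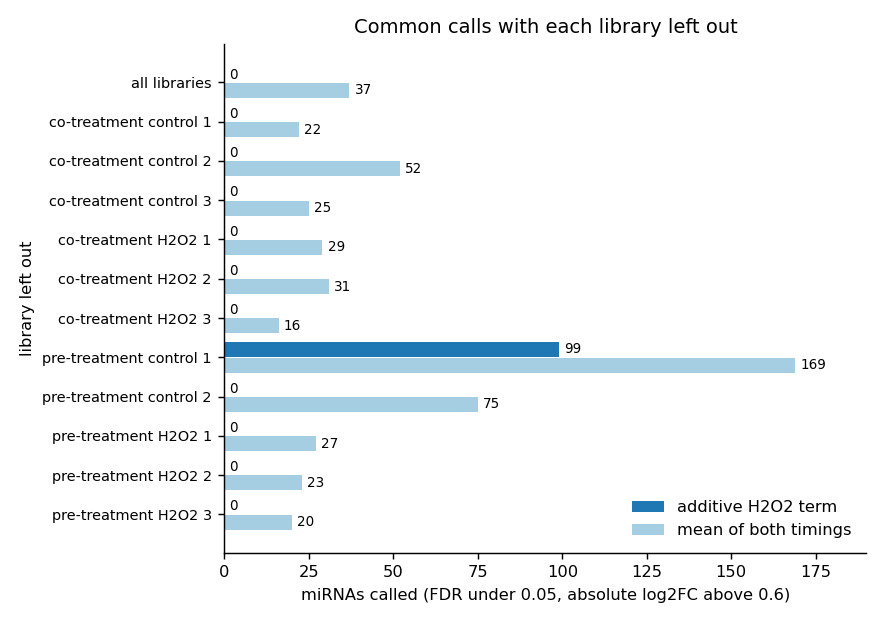
Number of miRNAs called by the additive H2O2 term (dark bars) and by the equally weighted mean of both regimens (light bars) with all libraries and with each library left out (y axis). The additive term called 99 without pre-treatment control 1 and 0 in every other row, and the mean called 37 with all libraries and 169 without pre-treatment control 1.

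GC content moved with these results. Over 356 miRNAs with a sequence and a mean of at least 10 CPM (88.1% of 404), the GC content of the mature sequence correlated with log2FC at 0.66 in co-treatment, -0.43 in pre-treatment and 0.16 in the additive fit, as a description across miRNAs that share libraries. The 13 higher miRNAs with a sequence had a median GC content of 50.0% (42.9% to 69.6%) and the 6 lower ones a median of 39.2% (34.8% to 59.1%). With each library's GC trend removed, 6 miRNAs were called by the additive term, among them hsa-miR-488-5p (log2FC 1.02), hsa-miR-1287-5p (log2FC 0.94) and hsa-miR-28-3p (log2FC 1.07), and hsa-miR-34a-5p stood at 0.63 with an FDR of 0.0588. The higher miRNAs of the highest GC content had smaller values than without this correction, with hsa-miR-339-3p (69.6% GC) at 0.62 in place of 0.88 and hsa-miR-99b-3p (63.6% GC) at 0.23 in place of 0.40. Of the 22, 9 had a mean level under 10 CPM, where the counts of single libraries are small. The scaling moved the median over all miRNAs, which was 0.09 in co-treatment and -0.25 in pre-treatment with TMM and 0.05 and -0.09 with library size only. The additive sign of all 22 was the same with either and with DESeq2 size factors, which was largely set by how the 22 were chosen. With library size only, 22 miRNAs were without overlap above control in both regimens and 4 below, in place of 15 and 7.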

How the data were processed

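Small RNA of 11 SH-SY5Y libraries was sequenced after a QIAseq miRNA library preparation. The authors made the counts of mature miRNAs with FastQC 0.11.8 for quality, Cutadapt 2.10 for trimming, Bowtie2 2.4.1 for alignment to hg19 (GRCh37) and htseq-count 0.7.2 for counting, and deposited them per regimen without normalization. These versions come from the submitters' processing notes, which also name edgeR 3.6.1, and the use of molecular identifiers in counting is not given in the sources used here, so detection limits (3 counts) cover counting error only. The authors' deposited tables of log2 fold changes, log CPM, p-values and FDR were not used.

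The count tables were joined by miRNA name and grouped by the labels. Tested were miRNAs with more than 0.936 CPM, which is 5 counts in the smallest library, in 5 or more of the 11 libraries. A miRNA could pass through its H2O2 or its control libraries alone. H2O2 was tested with edgeR 4.0.16 in R 4.3.3 (quasi-likelihood test, TMM scaling, design of regimen plus H2O2, Benjamini-Hochberg adjustment over 777 miRNAs), in place of the pairwise exact test of the study, which takes no covariate. Each regimen, their mean and their difference were contrasts in a fit of 4 groups. SE is the absolute log2FC over the square root of the F statistic. The code was tested on simulated data. Alternatives were DESeq2 1.42.0, other scalings, filters and thresholds, the replicate number as a block, GC content and each library left out.

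The members and lists were chosen with earlier results of these data known. Named were, as nothing was called, the 5 higher and 5 lower miRNAs with the lowest p among those without overlap in both regimens, their other arms and family members, 5 miRNAs that the study's text names and members of the lists. Other names were chosen after their values were seen.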

Additional observations from a re-analysis of the deposited data

Results flagged for a closer look

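The effect of H2O2 differed between the regimens at an FDR under 0.05 for 250 of 777 miRNAs in edgeR's quasi-likelihood test of the difference. Among the miRNAs named, the pre-treatment log2FC minus the co-treatment log2FC was 1.61 for hsa-miR-34a-3p, -1.93 for hsa-miR-339-5p, -2.34 for hsa-miR-99b-5p and -1.59 for hsa-miR-30c-2-3p, which are partner arms of miRNAs that lay the same way in both regimens. It was -1.89 for hsa-miR-675-3p and -2.71 for hsa-miR-323b-3p.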

How the results depend on the processing

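The additive term called 0 miRNAs with library size only, DESeq2 size factors, no log2FC threshold, a threshold of 1, robust quasi-likelihood and only the miRNAs with a GC value. It called 29 with DESeq2 (15 higher, 14 lower), of which 13 were among the 22 without overlap, 18 without the low-count filter (6 higher, 12 lower, 17 of the same sign), 1 (higher) with the CPM minimum in all 11 libraries, 1 (higher) with the bias-adjusted quasi-likelihood and 6 with the GC trend removed (4 higher, 2 lower, 6 of the same sign). The equally weighted mean called 37 (16 higher, 21 lower, 29 of the same sign). Co-treatment alone gave 179 calls (68 higher, 111 lower) and pre-treatment alone 44 (7 higher, 37 lower). The robust and bias-adjusted tests and the restriction to miRNAs with a GC value were chosen after seeing the data. The cause of these differences was not tested.

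Over the fits that each leave out 1 library, the additive term called 0 to 99 (0 to 58 higher, 0 to 41 lower, 0 to 99 of the same sign), with 99 only without pre-treatment control 1. miRNAs without overlap numbered 16 to 78 above control, 8 to 35 below and 130 to 242 in opposite directions, with 78 and 35 without pre-treatment control 1 and 242 without pre-treatment control 2. No overlap is easier to reach with a library left out. With 1 pre-treatment control left, the H2O2 libraries need only lie on one side of a single value. The rise in these counts is thus expected by construction. Without co-treatment control 2, the miRNAs without overlap were 28 above and 23 below. The regimens differed for 189 to 408 miRNAs, with 408 without pre-treatment control 2. With library size only, 4 lay below control in both. The additive log2FC of the 23 miRNAs followed kept its sign in each of 581 recalculations, and 65 of these passed the threshold, some of them only without pre-treatment control 1. Of the 23, 22 were chosen for lying the same way in both regimens, so a kept sign was largely set by that choice. All of the 22 stayed without overlap in the same direction in both regimens when a library was left out, except without pre-treatment control 2, where 19 did. The 22 were chosen for having no overlap in all libraries. Leaving one out can bring overlap only through the changed scaling, so this does not test them.

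With the replicate block, the additive term called 0 miRNAs, also with the GC trend removed. The numbers were not taken as pairs, since deviations of same-numbered libraries correlated at -0.193 to 0.274. Levels under 3 counts, such as hsa-miR-34b-3p in pre-treatment control 2, limit what can be told.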
